A study of Homo sapiens with 9 samples.

Results

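The genes described here are 33 genes of glycolysis, glucose uptake and hypoxia-type responses, out of 16222 genes in the deposited tables. They were chosen by name for their place in the pathway, but with earlier results of these data known. Shares of the set given beside those of all genes therefore describe it and are not a test. The set holds 3 sugar transporters, 13 genes grouped with the preparatory steps from glucose to triose phosphate and 7 grouped with the energy-yielding steps. It also holds 4 genes of lactate formation and transport, 2 kinases that hold back pyruvate oxidation and 4 hypoxia-type genes. The preparatory group counts PGM1, which links glycolysis with glycogen, and the energy-yielding group counts TPI1, which only interconverts triose phosphates. All 33 were in the tables, and 32 passed the filter on low counts. The exception was EGLN3, a prolyl hydroxylase that marks HIF subunits for destruction, with 24 counts over all 9 libraries.

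RNA from THP-1, a human monocytic leukaemia line labelled wild type, was sequenced in 3 groups of 3 libraries. Every group had been treated with PMA, a phorbol ester that turns these cells into adherent macrophage-like cells. The control group received PBS, a second group received LPS, a bacterial cell wall lipid that activates macrophages, and the other group received LPS and ABS together. What ABS stands for is not given by the labels, although apoptotic bodies appear in the series' title, and doses and times are not given in the sources used here. THP-1 is a single cell line, and whether each library had its own culture is not stated. The p-values therefore measure the spread between these libraries, which may be technical.

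Glycolysis splits glucose into pyruvate and yields ATP without oxygen. Cells take glucose in through SLC2A (GLUT) carriers, trap it with hexokinases, commit it at phosphofructokinase, and may reduce the pyruvate to lactate, which leaves through SLC16A (MCT) carriers. The transcription factor HIF-1, whose HIF1A subunit is degraded when oxygen is plentiful, is known to raise many of these genes, and macrophages activated with LPS are known for a shift towards glycolysis. Several steps have isoenzymes: HK1 is the widespread hexokinase and HK2 the inducible one, ALDOC and ALDOA are aldolases, and LDHA and LDHB encode the subunits of lactate dehydrogenase that favour lactate formation and lactate use.

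Libraries held 38506162 to 41679412 counts, of which the 33 genes took 1.36 to 1.49% among controls, 1.09 to 1.16% in LPS libraries and 1.3 to 1.54% with LPS and ABS. Macrophage markers were present, with all 12 in the table and their sum in CPM (counts scaled to a common library total) ranging over 2237 to 2301 among controls, 2453 to 2527 in LPS libraries and 2896 to 3101 with LPS and ABS. Summed fibroblast (5 of 6 measured), chondrocyte (4 of 6), T cell (2 of 6) and epithelial (5 of 6) markers reached at most 6.20, 0.276, 0.135 and 4.01 CPM, and B cell markers (4 of 6) at most 19.6. Endothelial markers (5 of 6) summed to 237 to 359.7 CPM, with 4 of the 5 under 1 CPM in every library and the rest PECAM1, which myeloid cells also make. The cytokine gene IL1B, which LPS is known to induce, was at 37.5, 37.6 and 50.8 CPM in controls, 12, 12.1 and 13.8 with LPS and 85.4, 50.7 and 70.6 with LPS and ABS, so the libraries labelled LPS held less of it than the controls (log2 fold change -1.73 ± 0.20 SE, edgeR adjusted p = 2.3e-04). TNF, also an LPS-induced gene, did not pass the test in that comparison (0.57 ± 0.41, edgeR adjusted p = 0.393). Counts also followed the GC content of transcripts differently between groups. Per 10 points of GC, log2 CPM relative to the gene's mean over the 9 libraries rose by 0.221 to 0.362 with ABS. The slopes in the other 6 libraries were -0.3 to -0.0238. Being relative to that mean, they show differences between libraries and not each library's own GC slope. The library LPS with ABS 3 stood apart from its group: on the second principal component it lay at 22.7, nearer the controls (29.6 to 41.5) than its partners (-16.7 and -14).

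With LPS, 12 of the 32 tested genes fell and 1, SLC2A3, rose (edgeR quasi-likelihood test, adjusted p under 0.05 over all 12970 genes tested; such genes are referred to as called). That is 37.5% of the set lower, where 7.19% of all genes tested were lower, and 3.12% higher, where 7.71% of all were. The groups did not overlap for 18 lower genes and 1 higher gene, 56.2% and 3.12% of the set, beside 22.7% and 19.9% of all genes. The median log2 fold change over the set was -0.33, beside -0.03 over all genes. When LPS with ABS was set against LPS, 16 genes rose and 4 fell (50% and 12.5%, where 16.8% and 18.8% of all genes did), with a median of 0.44 beside 0.02. Groups did not overlap for 17 higher and 5 lower genes in that comparison (53.1% and 15.6%, beside 21.9% and 24.3%). After the trend with GC content was removed from each library, 5 rose (SLC2A1, HK2, GPI, PGK1 and LDHA) and 2 fell (LDHB and KDM3A), or 15.6% and 6.25% of the set, where 4.97% and 4.21% of all genes did, and the median was 0.15. Against the controls, LPS with ABS had 4 genes higher and 10 lower (12.5% and 31.2%, where 14.8% and 19.0% of all genes were), or 3 higher and 7 lower after the GC correction (9.38% and 21.9%, where 7.94% and 5.05% were). The comparisons of LPS against control and of LPS with ABS against LPS share the LPS libraries, so a gene's values in both move with the same 3 libraries. Of all genes tested, in either direction, called genes made up 14.9% with LPS against control, 35.6% with ABS against LPS and 33.8% against control. After the GC correction they were 21.1% (11.4% higher and 9.73% lower, beside 1 and 15 genes of the set), 9.18% and 13.0%. Groups did not overlap between LPS with ABS and control for 9 higher and 10 lower genes (28.1% and 31.2%, beside 24.9% and 25.1%). Without the library LPS with ABS 3, the counts were 17 higher and 4 lower against LPS, beside 1719 and 2125 of all genes, and 6 higher and 8 lower against controls, beside 2115 and 2564. After the GC correction they were 5 and 2 (beside 408 and 320 of all genes, from 645 and 546 with that library) and 3 and 6 (beside 1455 and 1157, from 1030 and 655). In bulk RNA such as this, fewer cells of a kind and less RNA per cell cannot be told apart.

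**Figure D1:**
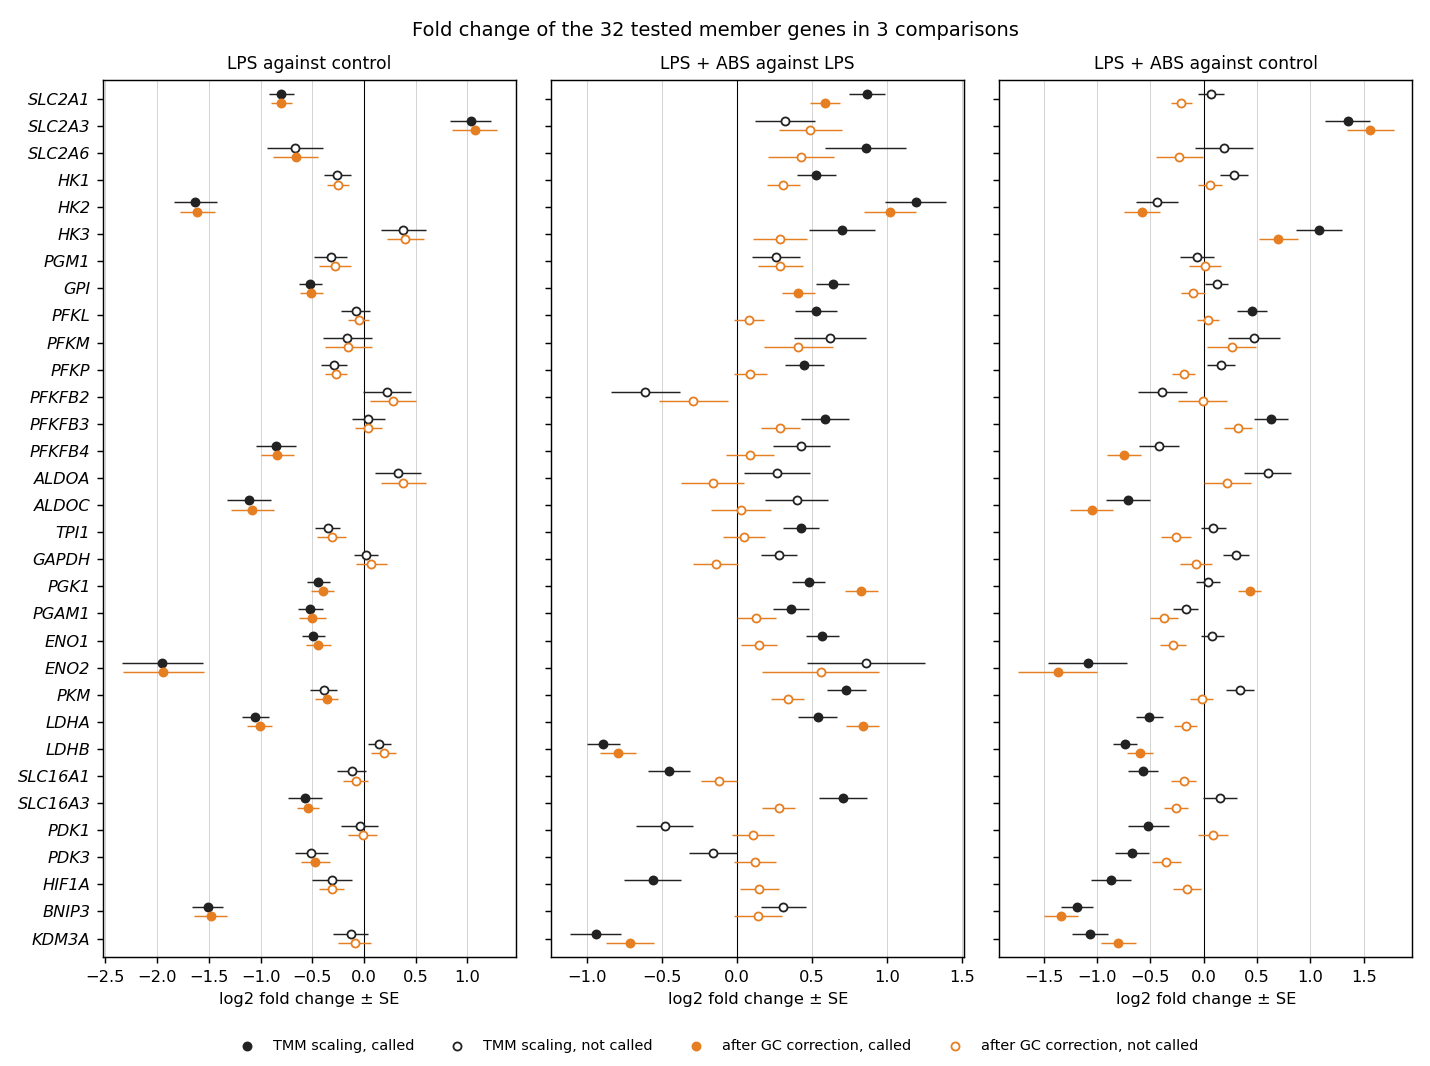
Log2 fold change (horizontal axis, ± SE) of the 32 tested genes in pathway order for the 3 comparisons, with TMM scaling in black and after the GC correction in orange; filled points were called. In LPS against control 12 filled black points lie left of 0 and 1 right of it, and the orange points lie close by; in LPS + ABS against LPS 16 black points are filled right of 0, and 5 orange ones.

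To show what stands upstream of all 5 genes called in both of the first 2 comparisons also after the GC correction, and of LDHB, the isoenzyme of LDHA, the 250 bases before the RefSeq gene start (GRCh38.p14) are printed. They lie at chr1:42958869-42959118 (SLC2A1, minus strand), chr2:74833877-74834126 (HK2, plus), chr19:34364742-34364991 (GPI, plus), chrX:78103998-78104247 (PGK1, plus), chr11:18394313-18394562 (LDHA, plus) and chr12:21657843-21658092 (LDHB, minus). Each is written 5′ to 3′ on the gene's strand, and capitals mark the hypoxia response element core letters ACGTG or GCGTG on either strand. Other transcripts of these genes can start elsewhere, also within these windows.
SLC2A1: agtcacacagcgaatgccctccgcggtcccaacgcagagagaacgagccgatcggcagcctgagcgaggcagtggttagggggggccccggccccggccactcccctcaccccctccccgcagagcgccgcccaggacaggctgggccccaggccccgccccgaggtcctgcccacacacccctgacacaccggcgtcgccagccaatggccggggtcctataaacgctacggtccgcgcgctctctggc
HK2: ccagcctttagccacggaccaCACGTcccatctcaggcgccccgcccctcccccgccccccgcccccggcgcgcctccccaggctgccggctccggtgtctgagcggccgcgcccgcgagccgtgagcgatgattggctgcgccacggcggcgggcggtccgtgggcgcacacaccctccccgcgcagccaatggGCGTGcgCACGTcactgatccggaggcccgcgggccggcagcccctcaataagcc
GPI: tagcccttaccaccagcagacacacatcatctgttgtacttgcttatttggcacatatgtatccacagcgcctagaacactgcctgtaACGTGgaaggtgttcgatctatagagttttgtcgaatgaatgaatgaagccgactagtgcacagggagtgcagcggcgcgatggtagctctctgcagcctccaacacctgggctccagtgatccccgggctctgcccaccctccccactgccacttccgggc
PGK1: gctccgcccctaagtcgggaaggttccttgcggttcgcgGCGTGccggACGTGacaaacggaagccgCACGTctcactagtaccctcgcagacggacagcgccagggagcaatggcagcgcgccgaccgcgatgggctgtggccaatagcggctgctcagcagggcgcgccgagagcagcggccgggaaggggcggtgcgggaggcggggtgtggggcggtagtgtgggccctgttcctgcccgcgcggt
LDHA: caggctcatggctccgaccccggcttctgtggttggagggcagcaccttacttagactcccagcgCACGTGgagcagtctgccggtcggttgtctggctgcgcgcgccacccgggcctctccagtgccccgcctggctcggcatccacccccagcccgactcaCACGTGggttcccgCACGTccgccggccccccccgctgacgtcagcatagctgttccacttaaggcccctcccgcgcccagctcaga
LDHB: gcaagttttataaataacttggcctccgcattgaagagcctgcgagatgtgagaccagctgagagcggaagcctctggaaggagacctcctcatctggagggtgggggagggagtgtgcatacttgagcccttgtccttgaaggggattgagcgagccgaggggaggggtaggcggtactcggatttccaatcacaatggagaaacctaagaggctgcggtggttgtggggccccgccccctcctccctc
The HK2, PGK1 and LDHA windows each held the letters at 3 separate places, that of GPI at 1, and those of SLC2A1 and LDHB at 0, so the 5 genes did not share them. Of the 30 genes with a promoter in the RefSeq table (all but SLC2A3, PFKFB2 and SLC16A1), 17 held ACGTG or GCGTG, or 56.7%, beside 57.1% of 10456 promoters of genes tested here. ACGTG alone was in 10 (33.3%, beside 23.1%), GCGTG in 12 (40%, beside 45.3%), and the E-box CACGTG, which contains ACGTG on both strands, in 4 (13.3%, beside 8.86%). ALDOC and BNIP3 had the letters at 4 and 5 places. A match describes letters only.

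Of the 3 sugar carriers of the set, 1 fell and 1 rose with LPS, measured as transcripts, not as uptake. SLC2A1 (GLUT1), the widespread glucose carrier, was at 387, 393 and 369 CPM in controls, 195, 247 and 218 with LPS and 413, 373 and 421 with LPS and ABS. The LPS libraries lay below both other groups, which overlapped. SLC2A1 fell with LPS (log2 fold change -0.80 ± 0.12, adjusted p = 9.4e-04) and was higher with ABS than with LPS (0.87 ± 0.12, adjusted p = 0.00291, and 0.59 ± 0.10, adjusted p = 0.00689, after the GC correction). SLC2A3 (GLUT3), a high-affinity glucose carrier with far fewer counts, was at 11.1, 11 and 10.2 CPM in controls, 21.9, 19.6 and 24.6 with LPS and 31.5, 32.9 and 18.2 with LPS and ABS. Every treated library was above every control: it rose with LPS (1.03 ± 0.20, adjusted p = 0.00603) and was higher with LPS and ABS than in controls (1.35 ± 0.21, adjusted p = 0.00112). The comparison of ABS with LPS did not pass for it (0.32 ± 0.20, adjusted p = 0.225), but did without the library LPS with ABS 3 (0.55, adjusted p = 0.0187). SLC2A14, a near copy of SLC2A3 that could share its reads, lay between 2.67 and 5.82 CPM. SLC2A6, a hexose carrier of lysosomal membranes in macrophages, lay at 86.7 to 93.7, 32.1 to 81.4 and 75.2 to 123 CPM in the same order of groups. It was called only with ABS against LPS (0.86 ± 0.27, adjusted p = 0.027), where the groups overlapped. The GC correction ended that call (0.43, adjusted p = 0.213), as did leaving out LPS 1 (0.58, adjusted p = 0.0778), LPS 2 (0.82, 0.0562), LPS with ABS 1 (0.71, 0.0731) or LPS with ABS 3 (0.82, 0.0599). With LPS against control, SLC2A6 passed once GC was corrected (-0.66, adjusted p = 0.0491) or when LPS 3 was left out (-1.04, adjusted p = 0.029).

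**Figure D2:**
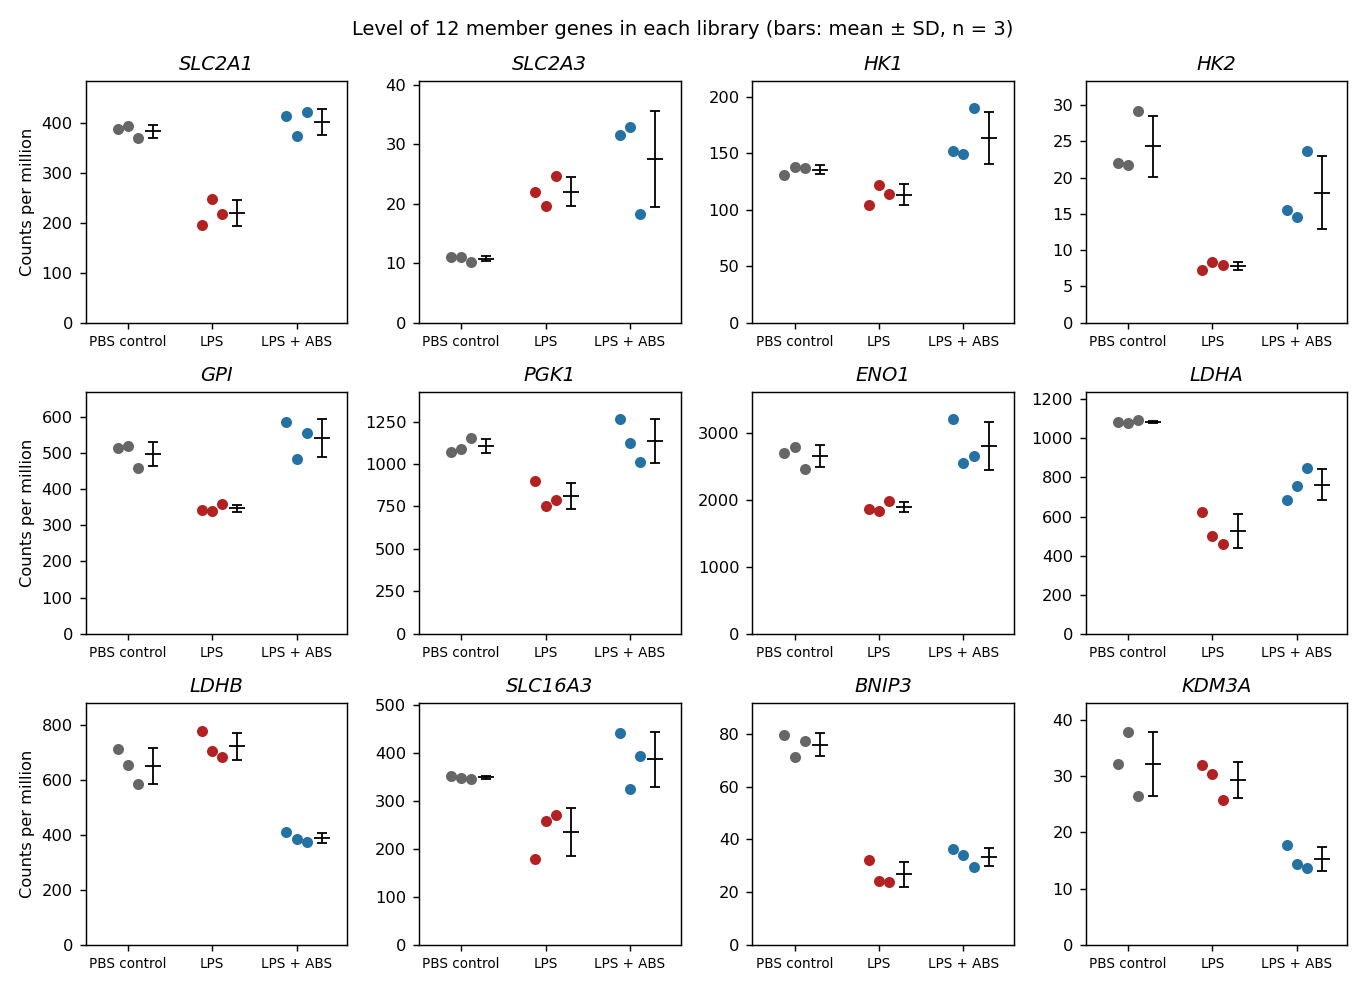
CPM (linear vertical axes from 0) of 12 genes in each of the 9 libraries, with bars for the mean ± SD of 3. The LPS libraries are the lowest in SLC2A1, HK1, HK2, GPI, PGK1, ENO1, LDHA and SLC16A3. LDHB and KDM3A are lowest in the libraries with LPS and ABS.

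Of the 3 hexokinases, which phosphorylate glucose on entry, only HK2 was called with LPS, and all 3 were called higher with ABS than with LPS. HK2 was at 22.0, 21.7 and 29.2 CPM in controls, 7.22, 8.36 and 7.95 with LPS and 15.5, 14.6 and 23.7 with LPS and ABS. All LPS libraries lay below every other library. HK2 fell with LPS (-1.63 ± 0.21, adjusted p = 4.4e-04) and was higher with ABS than with LPS (1.19 ± 0.20, adjusted p = 0.00438, and 1.02 ± 0.17, adjusted p = 0.00747, after the GC correction). Against controls the library LPS with ABS 3 decided the call: -0.44 ± 0.20 (adjusted p = 0.103) with it and -0.70 (adjusted p = 0.00968) without it, and -0.58 ± 0.17 (adjusted p = 0.039) with all libraries after the GC correction. HK1 was at 131, 138 and 137 CPM in controls, 104, 122 and 114 with LPS and 152, 149 and 190.1 with LPS and ABS. HK1 did not pass in LPS against control (-0.26 ± 0.13, adjusted p = 0.196), although its groups did not overlap. It was called with ABS against LPS (0.53 ± 0.13, adjusted p = 0.00952), a call that ended after the GC correction (0.31, adjusted p = 0.0849). HK3, the hexokinase of myeloid cells, was at 10.4, 9.25 and 8.12 CPM in controls, 9.40, 16.1 and 10.6 with LPS and 20.8, 22.9 and 15.3 with LPS and ABS. It was higher with LPS and ABS than in controls, without overlap (1.08 ± 0.22, adjusted p = 0.00423, and 0.70, adjusted p = 0.0252, after the GC correction). Its call against LPS (0.70 ± 0.22, adjusted p = 0.028) ended once GC was corrected (0.29, adjusted p = 0.301) and without LPS 1 (0.55, adjusted p = 0.112), LPS 3 (0.62, 0.0966) or LPS with ABS 2 (0.58, 0.0969).

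Of the other 10 preparatory genes, GPI, PFKFB4 and ALDOC fell with LPS. GPI, the isomerase that makes fructose 6-phosphate, was at 515, 519.8 and 458 CPM in controls, 342, 339.7 and 359 with LPS and 587, 484 and 556 with LPS and ABS. GPI fell with LPS (-0.52 ± 0.11, adjusted p = 0.00902) and was higher with ABS than with LPS (0.64 ± 0.11, adjusted p = 0.00438, and 0.41 ± 0.11, adjusted p = 0.0389, after the GC correction). The first of these calls ended without control 1 (-0.50, adjusted p = 0.0508) or control 2 (-0.49, 0.053). PFKFB4, one of the enzymes that set fructose 2,6-bisphosphate, the activator of phosphofructokinase, was at 46.0, 43.5 and 37.3 CPM in controls, 19.4, 29.3 and 21.8 with LPS and 40.3, 26.3 and 28.5 with LPS and ABS. It fell with LPS (-0.85 ± 0.19, adjusted p = 0.0128), a call that ended without control 1 (-0.78, adjusted p = 0.0559), control 2 (-0.83, 0.0504) or LPS 3 (-0.80, 0.0651). PFKFB4 passed with ABS against LPS only without LPS 2 (0.59, adjusted p = 0.0342), and against controls only after the GC correction (-0.75, adjusted p = 0.00887) or without LPS with ABS 1 (-0.63, adjusted p = 0.0199). PFKFB3, the family member with the strongest kinase activity, was at 64.2, 68.9 and 63.3 CPM in controls, 50.8, 79.9 and 71.7 with LPS and 93.6, 97.2 and 113 with LPS and ABS. It was called higher with ABS than with LPS (0.59 ± 0.16, adjusted p = 0.0167) and than in controls (0.63 ± 0.16, adjusted p = 0.0114). Neither call held after the GC correction (0.29, adjusted p = 0.156, and 0.32, adjusted p = 0.109).

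Phosphofructokinase, the committed step, was split between PFKP and PFKL, with PFKM at 1.88 to 3.58 CPM. None of the 3 passed with LPS against control (-0.29 to -0.08). PFKL was at 234, 229 and 228 CPM in controls, 183, 253 and 216 with LPS and 368, 286 and 288 with LPS and ABS. Its calls with ABS against LPS (0.53 ± 0.14, adjusted p = 0.015) and against controls (0.45 ± 0.14, adjusted p = 0.0294) both ended after the GC correction (0.08, adjusted p = 0.619, and 0.04, adjusted p = 0.841). The PFKL call against LPS also ended without LPS 1 (0.42, adjusted p = 0.0561), and that against controls without control 1 (0.46, 0.0826), control 2 (0.44, 0.0898), control 3 (0.44, 0.0799) or LPS with ABS 1 (0.32, 0.0885). PFKP was at 296, 307 and 261, then 204, 252 and 251, then 362, 282 and 322 CPM. It was called with ABS against LPS (0.45 ± 0.13, adjusted p = 0.0217), but not after the GC correction (0.09, adjusted p = 0.631), nor without LPS 1 (0.36, 0.0781) or LPS with ABS 1 (0.36, 0.0515). PFKFB2, at 2.15 to 4.80 CPM, passed only with ABS against LPS without LPS with ABS 3 (-0.73, adjusted p = 0.048). PGM1, which links glycolysis with glycogen, lay at 12.9 to 20.1 CPM. PFKM and PGM1 passed in none of the 3 comparisons.

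The aldolases cleave fructose 1,6-bisphosphate. ALDOC was at 71.8, 61.1 and 45.2 CPM in controls, 28.1, 25.7 and 28.9 with LPS and 49.2, 30.2 and 29.6 with LPS and ABS. It fell with LPS (-1.11 ± 0.21, adjusted p = 0.00504), the LPS libraries lying below all controls. Against controls it was also lower with LPS and ABS (-0.71 ± 0.21, adjusted p = 0.0231, and -1.05 ± 0.20, adjusted p = 0.00648, after the GC correction), but the groups overlapped. That call ended without control 1 (-0.55, adjusted p = 0.107), control 2 (-0.69, 0.0673), LPS with ABS 2 (-0.59, 0.0902) or LPS with ABS 3 (-0.58, 0.0609). ALDOA was at 21.2, 21.4 and 18.0 CPM in controls, 21.7, 20.8 and 34.0 with LPS and 32.5, 37.2 and 22.2 with LPS and ABS, and passed in no comparison with all libraries. Without LPS with ABS 3 it passed against controls (0.79, adjusted p = 0.0125). With all libraries and the GC correction that difference was 0.22 (adjusted p = 0.548). The level of ALDOA is uncertain: it was 9.77 FPKM (fragment counts scaled by transcript length and library total) in controls, where TPI1 of the following step was at 319.8 FPKM. In GENCODE 29 (GRCh38) ALDOA, on chromosome 16 from 30064164 to 30070457, overlaps AC093512.2 on its own strand and AC093512.1 on the other, and 2 pseudogenes carry its name; the part of these in the level was not tested.

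In the energy-yielding steps, PGK1, PGAM1, ENO1 and ENO2 fell with LPS. PGK1, the first step to return ATP, was at 1073, 1087 and 1151 CPM in controls, 898, 752 and 789 with LPS and 1267, 1124 and 1010 with LPS and ABS. The LPS libraries were the lowest without overlap. PGK1 fell with LPS (-0.44 ± 0.11, adjusted p = 0.0225) and was higher with ABS than with LPS (0.48 ± 0.11, adjusted p = 0.00966). Its transcript is GC-poor, and the second difference grew after the GC correction (0.83 ± 0.11, adjusted p = 0.0023), as did that against controls (0.04 ± 0.11, adjusted p = 0.809, to 0.43 ± 0.11, adjusted p = 0.0218). The fall with LPS was not called without control 1 (-0.46, adjusted p = 0.0676), control 2 (-0.45, 0.0744), control 3 (-0.41, 0.0931), LPS 2 (-0.35, 0.111) or LPS 3 (-0.42, 0.0942).

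PGAM1, phosphoglycerate mutase, was at 526, 538 and 581 CPM in controls, 414, 369 and 364 with LPS and 555, 425 and 486 with LPS and ABS. It fell with LPS (-0.52 ± 0.12, adjusted p = 0.013), but not without control 2 (-0.54, adjusted p = 0.0503), control 3 (-0.48, 0.0656), LPS 2 (-0.45, 0.0586) or LPS 3 (-0.49, 0.0693). With ABS against LPS its call (0.36 ± 0.12, adjusted p = 0.037) ended once GC was corrected (0.13, adjusted p = 0.511) and without LPS 2 (0.30, 0.112), LPS 3 (0.32, 0.118), LPS with ABS 1 (0.25, 0.0984) or LPS with ABS 3 (0.36, 0.0506). ENO1, the main enolase, was at 2692, 2782 and 2464 CPM in controls, 1864, 1830 and 1976 with LPS and 3207, 2544 and 2648 with LPS and ABS. ENO1 fell with LPS (-0.49 ± 0.11, adjusted p = 0.0113), a call lost without control 1 (-0.47, adjusted p = 0.0531) or control 2 (-0.45, 0.062). ENO1 was called with ABS against LPS (0.57 ± 0.11, adjusted p = 0.00535), but not after the GC correction (0.15, adjusted p = 0.418). ENO2, an enolase best known from neurons, was low: 2.59, 2.55 and 2.09 CPM in controls, 0.644, 0.430 and 0.798 with LPS and 1.70, 0.996 and 0.718 with LPS and ABS. All controls were above all treated libraries, and ENO2 had the largest fall of the 32 genes with LPS (-1.95 ± 0.39, adjusted p = 0.00597). Against controls it was lower with LPS and ABS (-1.09 ± 0.37, adjusted p = 0.0395), but not without control 1 (-1.03, adjusted p = 0.113), control 2 (-1.04, 0.107), control 3 (-1.18, 0.0625), LPS with ABS 2 (-1.0, 0.106) or LPS with ABS 3 (-0.84, 0.0967). ENO2 passed with ABS against LPS only without LPS with ABS 3 (1.11, adjusted p = 0.0491).

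PKM, pyruvate kinase, was at 1862, 1907 and 1660 CPM in controls, 1187, 1413 and 1547 with LPS and 2621, 1922 and 2342 with LPS and ABS. It was called with ABS against LPS (0.73 ± 0.13, adjusted p = 0.00492), but not after the GC correction (0.34, adjusted p = 0.0779). In LPS against control PKM passed only after that correction (-0.36, adjusted p = 0.0402, from -0.39 and 0.0687), and against controls with ABS only without LPS with ABS 2 (0.46, adjusted p = 0.0342). With all libraries and the GC correction the latter difference was -0.02 (adjusted p = 0.916). TPI1, triose phosphate isomerase, was at 566, 570.2 and 592, then 487, 420.2 and 451, then 722, 569.9 and 543 CPM. Its call with ABS against LPS (0.43 ± 0.12, adjusted p = 0.0193) ended once GC was corrected (0.05, adjusted p = 0.841) and without LPS 2 (0.35, 0.0664) or LPS 3 (0.43, 0.0592). GAPDH, often used as a reference gene, lay at 2810 to 3133, 2858 to 3286 and 3213 to 4463 CPM. It was not called with LPS (0.02 ± 0.12, adjusted p = 0.937), and without LPS with ABS 3 it passed with ABS against LPS (0.37, adjusted p = 0.0369) and against controls (0.39, adjusted p = 0.0241). With all libraries and the GC correction, GAPDH was at -0.14 (adjusted p = 0.542) and -0.07 (adjusted p = 0.794) in these comparisons. Near copies could share reads with several of these genes: 15 of the 33 have pseudogenes that carry their name in GENCODE 29, 62 of them for GAPDH and 39 for BNIP3.

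The lactate dehydrogenase genes were called in opposite directions with ABS against LPS, and only LDHA was called with LPS against control. LDHA was at 1084, 1079 and 1092 CPM in controls, 621, 499 and 458 with LPS and 687, 757 and 848 with LPS and ABS. The 3 groups did not overlap. LDHA fell with LPS (-1.05 ± 0.13, adjusted p = 3.7e-04) and was higher with ABS than with LPS (0.54 ± 0.13, adjusted p = 0.00952, and 0.84 ± 0.11, adjusted p = 0.00309, after the GC correction). It was lower with LPS and ABS than in controls (-0.51 ± 0.13, adjusted p = 0.0108), but not after the correction (-0.17, adjusted p = 0.356). LDHB was at 713, 656 and 584 CPM in controls, 779, 707 and 685 with LPS and 409, 384 and 375 with LPS and ABS. Controls and LPS overlapped (0.15 ± 0.11, adjusted p = 0.398), and all libraries with ABS lay below both. LDHB fell with ABS against LPS (-0.89 ± 0.11, adjusted p = 0.00241, and -0.79 ± 0.12, adjusted p = 0.00481, after the GC correction) and against controls (-0.74 ± 0.11, adjusted p = 0.00105, and -0.60 ± 0.12, adjusted p = 0.00691).

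Of the lactate carriers, SLC16A3 (MCT4), known for lactate export, was at 352, 348 and 345 CPM in controls, 178, 257 and 271 with LPS and 440.4, 325 and 392 with LPS and ABS. It fell with LPS (-0.57 ± 0.16, adjusted p = 0.0327). That call held only without LPS 3, and was lost without control 1 (-0.56, adjusted p = 0.096), control 2 (-0.57, 0.0934), control 3 (-0.58, 0.0911), LPS 1 (-0.40, 0.0724) or LPS 2 (-0.60, 0.0515). The gene was called with ABS against LPS (0.71 ± 0.16, adjusted p = 0.00803), but not after the GC correction (0.28, adjusted p = 0.135). SLC16A1 (MCT1), the widespread carrier, was at 61.6, 54.7 and 56.1 CPM in controls, 56.6, 51.0 and 50.9 with LPS and 37.7, 32.9 and 45.7 with LPS and ABS. All libraries with ABS lay below the other 6. Its calls with ABS against LPS (-0.45 ± 0.14, adjusted p = 0.0286) and against controls (-0.57 ± 0.14, adjusted p = 0.0102) both ended after the GC correction (-0.12, adjusted p = 0.548, and -0.19, adjusted p = 0.312). The SLC16A1 call against LPS also ended without LPS 1 (-0.39, 0.0882), LPS 3 (-0.47, 0.0627) or LPS with ABS 2 (-0.34, 0.0944), and that against controls without control 1 (-0.52, adjusted p = 0.0533).

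PDK1 and PDK3, kinases that switch off pyruvate dehydrogenase, were called only in LPS with ABS against control. PDK1 was at 12.8, 12.6 and 11.7 CPM in controls, 13.3, 11.7 and 11.1 with LPS and 10.4, 9.05 and 6.41 with LPS and ABS. Its call (-0.52 ± 0.19, adjusted p = 0.0461) turned to 0.09 (adjusted p = 0.715) after the GC correction. It also ended without control 1 (-0.50, adjusted p = 0.129), control 2 (-0.51, 0.114), control 3 (-0.56, 0.0802), LPS with ABS 2 (-0.56, 0.0785) or LPS with ABS 3 (-0.35, 0.101). PDK1 passed with ABS against LPS only without LPS with ABS 1 (-0.64, adjusted p = 0.0174). With all libraries and the GC correction that difference was 0.11 (adjusted p = 0.658). PDK3 was at 14.7, 15.5 and 17.4 CPM in controls, 12.6, 10.6 and 10.1 with LPS and 10.4, 8.62 and 10.9 with LPS and ABS, so both treated groups lay below all controls. Its call against controls (-0.67 ± 0.16, adjusted p = 0.0093) ended after the GC correction (-0.35, adjusted p = 0.108). With LPS alone PDK3 missed (-0.51 ± 0.16, adjusted p = 0.0511), and passed after the correction (-0.47, adjusted p = 0.0257) or without LPS 1 (-0.62, adjusted p = 0.0425).

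Among the hypoxia-type genes, BNIP3, a receptor for mitophagy and a known HIF-1 target, was at 79.6, 71.1 and 77.3 CPM in controls, 32.2, 24.2 and 23.8 with LPS and 36.3, 34.0 and 29.4 with LPS and ABS. All controls were above all treated libraries. BNIP3 fell with LPS (-1.51 ± 0.15, adjusted p = 1.3e-04) and was lower with LPS and ABS than in controls (-1.19 ± 0.15, adjusted p = 4.9e-04). BNIP3 passed with ABS against LPS only without LPS 1 (0.47, adjusted p = 0.0409, from 0.31 and 0.118). KDM3A, a histone demethylase known as a HIF-1 target, was at 32.1, 37.8 and 26.4 CPM in controls, 31.9, 30.3 and 25.7 with LPS and 17.7, 14.4 and 13.7 with LPS and ABS. Only the libraries with ABS were apart: it fell against LPS (-0.94 ± 0.17, adjusted p = 0.00482, and -0.71 ± 0.16, adjusted p = 0.0203, after the GC correction) and against controls (-1.07 ± 0.17, adjusted p = 0.00135, and -0.80 ± 0.16, adjusted p = 0.00715). HIF1A, the most GC-poor transcript of the set at 36.4% GC, was at 52.6, 44.7 and 58.3 CPM in controls, 45.1, 36.8 and 43.8 with LPS and 37.2, 25.3 and 22.6 with LPS and ABS. Its calls with ABS against LPS (-0.56 ± 0.19, adjusted p = 0.034, overlapping groups) and against controls (-0.87 ± 0.19, adjusted p = 0.00507) became 0.15 (adjusted p = 0.45) and -0.16 (adjusted p = 0.429) after the GC correction. The HIF1A call against LPS was also lost without LPS 1 (-0.51, 0.105), LPS 3 (-0.53, 0.0923), LPS with ABS 2 (-0.49, 0.107) or LPS with ABS 3 (-0.43, 0.0955). EGLN3 had 1, 1 and 9 counts in controls, 2, 4 and 1 with LPS and 1, 5 and 0 with LPS and ABS.

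The balance between isoenzymes was compared as log2 ratios of FPKM, which account for length, in 9 exact two-sided permutation tests whose smallest possible p is 0.10. HK2 over HK1 was -2.70, -2.80 and -2.36 in controls (mean -2.62 ± 0.23 SD, n = 3), -3.98, -3.99 and -3.97 with LPS (-3.98 ± 0.01) and -3.43, -3.48 and -3.13 with LPS and ABS (-3.35 ± 0.19). The 3 groups did not overlap, with differences of -1.36 for LPS against control, 0.63 for LPS with ABS against LPS and -0.73 for LPS with ABS against control (exact permutation p = 0.10 each). ALDOC over ALDOA was 2.12, 1.88 and 1.69 in controls (1.90 ± 0.22), 0.74, 0.67 and 0.13 with LPS (0.52 ± 0.34) and 0.96, 0.07 and 0.78 with LPS and ABS (0.60 ± 0.47), within the doubt on ALDOA given above. Both treated groups lay below the controls (-1.38 and -1.30, exact permutation p = 0.10 each) and overlapped each other (0.09, exact permutation p = 0.70). LDHB over LDHA was -0.25, -0.36 and -0.55 in controls (-0.39 ± 0.15), 0.68, 0.86 and 0.94 with LPS (0.83 ± 0.13) and -0.39, -0.63 and -0.82 with LPS and ABS (-0.61 ± 0.21). Only in the LPS libraries was there more LDHB than LDHA transcript, a difference of 1.21 from controls and -1.44 between LPS with ABS and LPS (exact permutation p = 0.10 each). Controls and LPS with ABS overlapped (-0.23, exact permutation p = 0.20). Adjusted over the 9 tests, the 7 at the smallest p came to 0.129 and the other two to 0.225 and 0.70, so none passed 0.05, which this design cannot reach. As a share of summed LDHA and LDHB FPKM, LDHB made up 43.4% ± 2.55 in controls, 63.9% ± 2.09 with LPS and 39.6% ± 3.54 with LPS and ABS (SD, n = 3). The LDHB share with LPS came about with LDHA lower and LDHB not called, and that with ABS with LDHB lower and LDHA higher than with LPS.

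**Figure D3:**
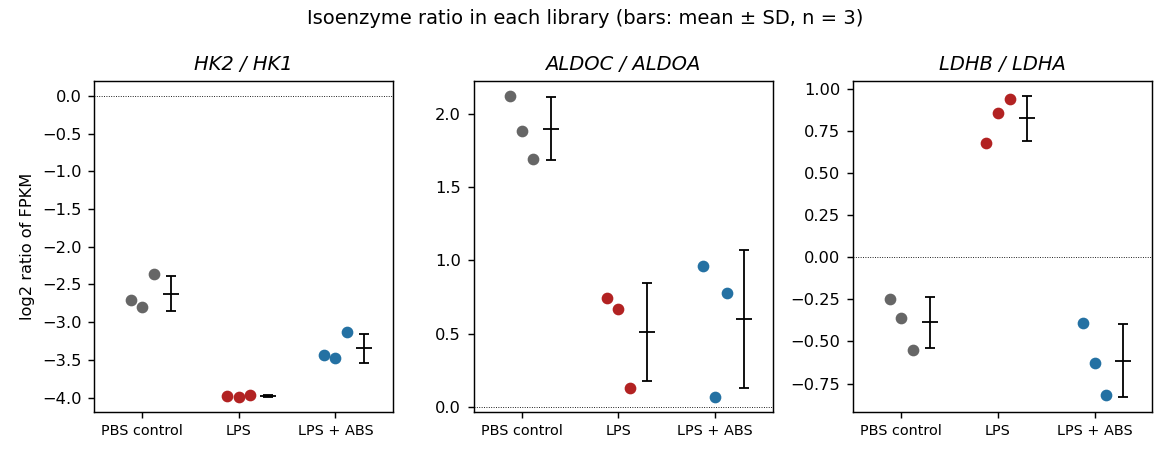
Log2 ratio of FPKM of 3 isoenzyme pairs in each of the 9 libraries, with bars for the mean ± SD of 3 and a dotted line at equal levels. HK2/HK1 is lowest in LPS and ALDOC/ALDOA highest in controls, while LDHB/LDHA is above 0 only in the 3 LPS libraries.

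Added up by pathway step, the isoenzymes gave transcript totals in FPKM that set steps apart. GAPDH was the most abundant step at 2089 ± 143 in controls, 2081 ± 192 with LPS and 2345 ± 348 with LPS and ABS (SD, n = 3). Enolase followed at 869 ± 64.3, 608 ± 17.5 and 839 ± 80.1, nearly all of it ENO1. Glucose transport by SLC2A1 and SLC2A3 came to 120.2 ± 5.40, 71.9 ± 6.70 and 119.7 ± 5.13, of which SLC2A3 made up 2.43%, 8.23% and 5.74%. The summed level of the pair was lower with LPS although SLC2A3 rose, since SLC2A1 made up 90.9% to 93.4% of it there. Hexokinases totalled 33.5 ± 0.597, 26.5 ± 2.51 and 37.5 ± 4.65, with HK1 at 79.1%, 82.1% and 78.2% and HK2 at 12.9%, 5.19% and 7.74%. Phosphofructokinases totalled 142 ± 8.90, 121 ± 14.2 and 159 ± 15.9, and the share of PFKP was 58.0%, 54.6% and 53.2%. For phosphoglycerate mutase every treated library was below every control, at 297 ± 12.1, 203 ± 19.7 and 242 ± 25.9. The same held for lactate dehydrogenase, at 795 ± 41.0, 591 ± 75.1 and 479 ± 35.2, without overlap between the 3 groups. For ABS against LPS, however, the GC correction moved LDHA from 0.54 to 0.84 and LDHB from -0.89 to -0.79, both upward. Whether the total with ABS would stay below that with LPS after the correction was not tested. The pyruvate dehydrogenase kinases PDK1 and PDK3 were lowest of the steps drawn, at 3.66 ± 0.0505, 3.15 ± 0.399 and 2.25 ± 0.271. These totals are scaled by library total and not by TMM, carry no GC correction and were not tested.

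**Figure D4:**
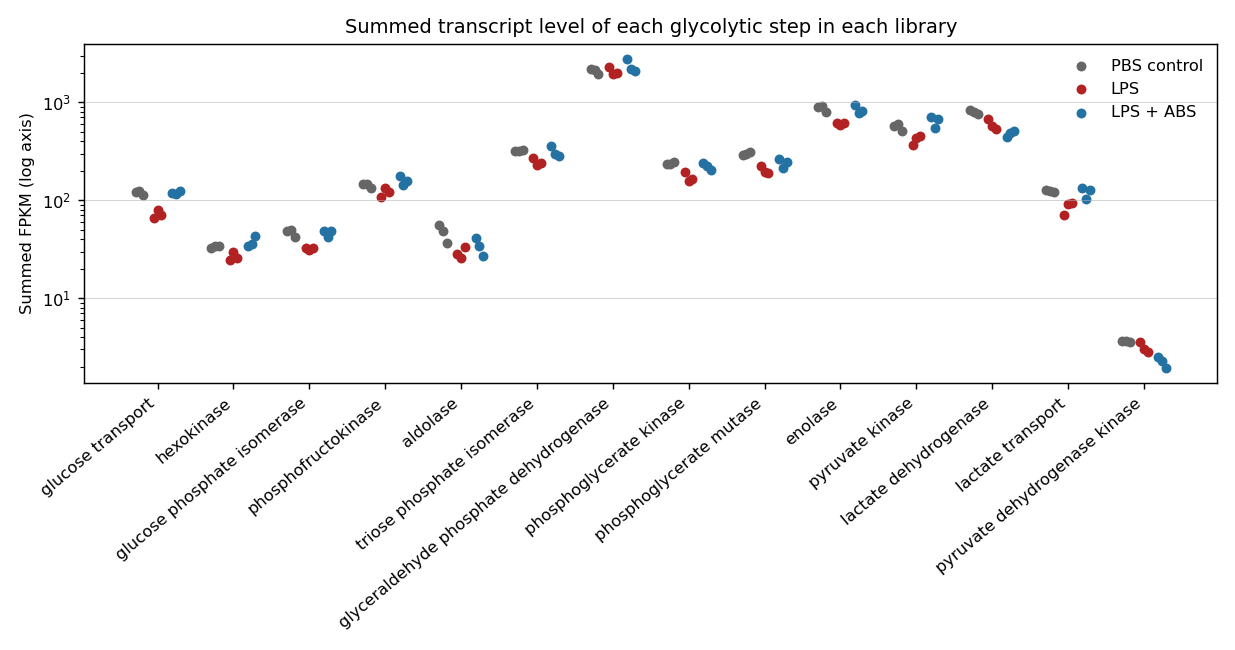
Summed FPKM (log axis) of the genes of each step in each library, in pathway order. Glucose transport, hexokinase, glucose phosphate isomerase and triose phosphate isomerase are lower in the 3 LPS libraries than in all others. So are phosphoglycerate kinase, enolase, pyruvate kinase and lactate transport. Lactate dehydrogenase steps down from controls to LPS to LPS + ABS in these values, which carry no GC correction.

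The GC trend touched the comparisons with ABS. Over the 32 genes, the fold change of LPS with ABS against LPS rose with transcript GC content (Pearson r 0.66, Spearman rho 0.54), as over 12923 genes (0.61 and 0.69). These are correlations across genes within shared libraries, given as a description. After the correction, which takes out the trend and so brings such values near 0, they were 0.07 and -0.03 over the set. For LPS against control they were -0.10 and -0.06 before it. The genes of the set had a median GC of 53%, beside 49.5% over all genes, from HIF1A at 36.4% to SLC2A6 at 63.7%. Of the 20 genes called with ABS against LPS 7 were also called after the correction, and of the 13 called with LPS against control all 13 were. For LPS with ABS against control 7 of 14 calls were kept, while PGK1, HK2 and PFKFB4 were called only after the correction. The part of the GC trend in single genes' results was tested only through this correction.

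**Figure D5:**
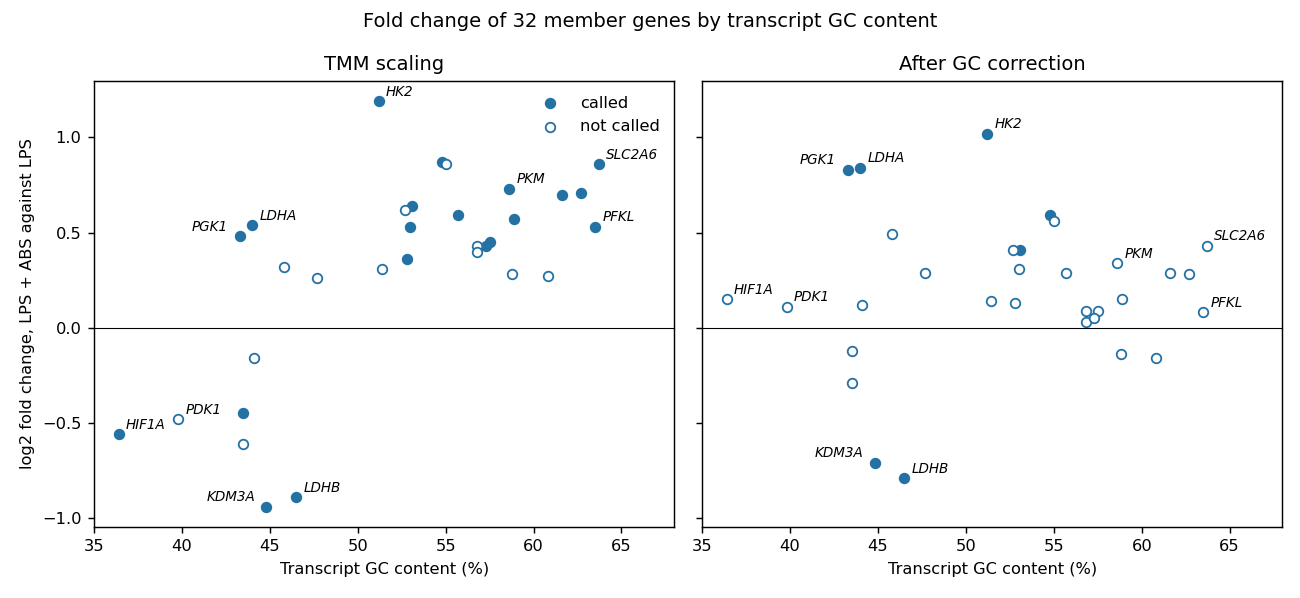
Log2 fold change of LPS + ABS against LPS (vertical axis) by transcript GC content in percent (horizontal axis) for the 32 tested genes, with TMM scaling on the left and after the GC correction on the right; filled points were called. The slope on the left is taken out by the correction itself on the right, where HK2, PGK1 and LDHA stay high and LDHB and KDM3A stay low.

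Other genes of the same pathways, listed apart from the 33, were counted in the same fit. Of all genes tested, 7.71% were higher and 7.19% lower with LPS. With ABS against LPS 16.8% of all were higher and 18.8% lower, or 4.97% and 4.21% after the GC correction. Of 10 other enzymes of glycolysis and gluconeogenesis, 1 rose and 1 fell with LPS: PCK2, the mitochondrial PEP carboxykinase (2.25 ± 0.32, adjusted p = 8.5e-04), and FBP1, which reverses phosphofructokinase (-0.42 ± 0.12, adjusted p = 0.0407). The FBP1 call was kept in 0 of 6 fits that left out 1 library (-0.49 to -0.35, adjusted p up to 0.182). With ABS against LPS 1 rose and 1 fell, and after the GC correction 0 were called by edgeR, with 1 higher at an unadjusted p under 0.05. Of 8 other sugar transporters 0 were called with LPS by edgeR or DESeq2, and 0 had an unadjusted p under 0.05. With ABS against LPS 1 rose and 1 fell (12.5% each), and after the correction 0 were called by edgeR, with 1 lower at an unadjusted p under 0.05. Of 14 genes of pyruvate and lactate handling, 1 fell with LPS (7.14%, near the share of all genes). It was PDHA1 of pyruvate dehydrogenase (-0.38 ± 0.12, adjusted p = 0.0478, kept in 0 of 6 such fits, adjusted p up to 0.173). With ABS against LPS 1 rose and 3 fell (7.14% and 21.4%). After the correction 4 rose (28.6%) and 0 fell by edgeR, with 3 lower at an unadjusted p under 0.05. Only 1 of the calls made before the correction was kept. The pentose phosphate pathway, which branches from glucose 6-phosphate and makes NADPH, had 4 of 9 genes higher with LPS (44.4%, where 7.71% of all genes were) and 0 lower by edgeR or DESeq2, with 1 lower at an unadjusted p under 0.05 and 1 lower called after the GC correction. Those named by the rule were TKTL1 (0.76 ± 0.19, adjusted p = 0.02), PGD (0.44 ± 0.11, adjusted p = 0.0204) and TKT (0.45 ± 0.13, adjusted p = 0.0375). None of the 4 calls was kept in all 6 fits that left out 1 library: TKTL1 and PGD were called in 2 (adjusted p up to 0.0865 and 0.102), TKT in 1 (up to 0.155) and PGLS in 0. TKTL1 and PGD lost theirs without any 1 of the 3 controls or LPS 3, and TKT also without LPS 2. In the comparison of ABS with LPS 2 of the 9 fell (22.2%, near the share of all genes), and after the correction 0 were called by edgeR, with 3 lower at an unadjusted p under 0.05.

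Of 17 glycogen genes, 1 rose and 2 fell with LPS (5.88% and 11.8%, near the 7.71% and 7.19% of all genes). PPP1R3C, a glycogen-targeting subunit of protein phosphatase 1, was higher (1.85 ± 0.44, adjusted p = 0.0147), though not without control 1 (1.64, 0.0656), control 3 (1.72, 0.066) or LPS 3 (1.76, 0.057). The lower ones were GBE1, the branching enzyme (-0.81 ± 0.14, adjusted p = 0.00249), and GYS1, glycogen synthase (-0.85 ± 0.18, adjusted p = 0.00884). With ABS against LPS 1 rose and 5 fell (5.88% and 29.4%, where 16.8% and 18.8% of all genes did). After the correction 1 rose and 2 fell (5.88% and 11.8%, where 4.97% and 4.21% of all did). The lower ones were then PGM3 (-0.57, adjusted p = 0.0354) and PHKB (-0.52, adjusted p = 0.0389). Of 13 HIF subunits and oxygen sensors, 1 fell with LPS (7.69%, near the 7.19% of all genes). It was ELOC (-0.43 ± 0.12, adjusted p = 0.0305, kept in 1 of 6 fits that left out 1 library, adjusted p up to 0.152). With ABS against LPS 4 of the 13 rose and 2 fell (30.8% and 15.4%, where 16.8% and 18.8% of all genes did). After the correction VHL, the ligase subunit that removes HIF subunits, was the 1 still called (0.65, adjusted p = 0.0418). Its call before the correction (0.61 ± 0.19, adjusted p = 0.027) was kept in 3 of 6 fits that left out 1 library, adjusted p up to 0.109.

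Of 31 other hypoxia response genes, 10 fell with LPS, as BNIP3 did, and 6 rose (32.3% and 19.4%, where 7.19% and 7.71% of all genes did). Among those that fell, named after their values were seen, were FAM162A, a mitochondrial protein (-1.02 ± 0.14, adjusted p = 7.8e-04), HILPDA, a lipid droplet protein (-1.10 ± 0.20, adjusted p = 0.00351), and P4HA1, a collagen prolyl hydroxylase (-0.85 ± 0.19, adjusted p = 0.0118, called in 4 of 6 fits that left out 1 library). The 3 with the smallest p were higher: VEGFA, the angiogenic factor (2.33 ± 0.23, adjusted p = 1.3e-04), DDIT4, an inhibitor of mTORC1 (2.65 ± 0.29, adjusted p = 2.0e-04), and STC2, a secreted glycoprotein (2.98 ± 0.39, adjusted p = 5.5e-04). VEGFA was at 57.6, 51.5 and 38.1 CPM in controls, 232, 240.0 and 265 with LPS and 301, 319 and 161 with LPS and ABS, so LPS with ABS 3 was again the nearest of its group to controls. With ABS against LPS 3 of the 31 rose and 2 fell (9.68% and 6.45%, where 16.8% and 18.8% of all genes did). None of these calls was kept after the GC correction. By edgeR 3 other genes were then called higher (9.68%, where 4.97% of all were) and 0 lower, with 3 lower at an unadjusted p under 0.05. Of 10 regulators of glucose sensing, 2 rose with LPS, and both are known to curb glucose uptake: TXNIP (1.92 ± 0.21, adjusted p = 1.8e-04) and ARRDC4 (1.23 ± 0.20, adjusted p = 0.00186). TXNIP was at 193, 179.8 and 179 CPM in controls, 728, 695 and 666 with LPS and 348, 470.0 and 219.6 with LPS and ABS, and ARRDC4 at 7.31, 6.86 and 6.86, then 15.0, 16.2 and 18.0, then 5.83, 4.77 and 3.32. For both, the LPS libraries were the highest of the 9. Any relation to the glucose carriers SLC2A1, which fell with LPS, and SLC2A3, which rose, was not tested. ARRDC4 fell with ABS against LPS (-1.82 ± 0.20, adjusted p = 0.00221, and -1.48, adjusted p = 0.0023, after the GC correction), and the fall of TXNIP (-1.01 ± 0.20, adjusted p = 0.0062) missed the threshold after the correction (-0.69, adjusted p = 0.06).

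With LPS and ABS against control the same lists, where 14.8% of all genes were higher and 19.0% lower, had in the order given 2 higher and 1 lower, 2 and 1, 1 and 4, 5 and 1, 2 and 7, 2 and 2, 8 and 11, and 4 and 2. After the GC correction (7.94% and 5.05% of all genes) edgeR gave 1 and 0, 0 and 0, 0 and 0, 0 and 0, 1 and 3, 3 and 1, 6 and 7, and 1 and 0. At an unadjusted p under 0.05 after it, sugar transporters had 1 higher and 1 lower, pyruvate handling 2 and 0, and the pentose phosphate pathway 1 and 0. VHL was higher (0.85 ± 0.19, adjusted p = 0.00648, and 0.93, adjusted p = 0.00611, after the GC correction), as were VEGFA (2.41 ± 0.24, adjusted p = 1.9e-04), DDIT4 (2.80 ± 0.30, adjusted p = 2.6e-04), STC2 (3.34 ± 0.40, adjusted p = 3.5e-04) and TXNIP (0.91 ± 0.20, adjusted p = 0.00628). Unlike TXNIP, ARRDC4 was called lower, though not after the GC correction. The glycogen genes PGM2 (-1.11 ± 0.14, adjusted p = 5.0e-04), UGP2 (-1.0 ± 0.16, adjusted p = 0.00143) and GBE1 (-0.84 ± 0.14, adjusted p = 0.00157) were lower, and stayed called after the correction (-0.49, -0.45 and -0.50).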

How the data were processed

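Gene counts were deposited by the authors as whole numbers for each library, with FPKM values beside them. The authors' FPKM equal count over length and library total, to a relative spread of 1.5e-13 across libraries, checked on the tables. DESeq2, R 3.2.0, HTSeq, HISAT2 and fastp are named in the submitters' processing notes, without their roles. Genome build, annotation and strand are not given in the sources used here, and the labels' protocols name 2 library kits without saying which library used which.

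Counts were tested with edgeR 4.0.16 (R 4.3.3): filterByExpr kept 12970 genes, libraries were scaled by TMM, and 3 group means were fitted over 9 libraries (6 residual degrees of freedom, common coefficient of variation 18.4%). The quasi-likelihood test was adjusted by Benjamini-Hochberg over all genes tested, and genes at adjusted p under 0.05 were called. All adjusted p-values of single genes are from this test. CPM are TMM-scaled. The GC correction used as offset a lowess trend (span 0.3) of log2 CPM, relative to the gene's mean over libraries, on transcript GC content. That content was of each gene's longest coding transcript in GENCODE 29, found for 16090 of 16222 genes (99.19%) and all 33 described. The script was tested on simulated data. DESeq2 1.42.0 was an alternative. Ratios were tested with scipy 1.17.1, and figures drawn with matplotlib 3.10.9.

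The genes described and the lists were chosen with earlier results of these data known. Values per library are given for the 6 isoenzyme genes and for genes called without overlap of their groups. By rule, at most 3 genes of each list were named per comparison, those with the smallest adjusted p. Outside this rule, FAM162A, HILPDA and P4HA1 were named after their values were seen. PGLS and SLC2A14 were also named outside it. Promoters are from RefSeq, matched by symbol. The most alike libraries of a group (controls 1 and 2) differed beyond counting noise, at a chi-square of 7.07 per degree of freedom.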

Additional observations from a re-analysis of the deposited data

How the results depend on the processing

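Leaving out 1 library at a time gave 6 to 12 genes of the set lower with LPS (6 without control 2, 7 without control 1) and 1 higher in every case, 13 to 17 higher and 2 to 5 lower with ABS against LPS, and 3 to 6 higher and 6 to 11 lower with LPS and ABS against control. Over all genes 873 to 1698, 2360 to 4918 and 2351 to 4679 were called. After the GC correction (leave-one-out chosen after seeing the data) the ranges were 9 to 14 lower, 4 to 5 higher and 1 to 2 lower, and 1 to 3 higher and 3 to 7 lower. Called among all genes in those fits were 1494 to 2039 (2743 with all libraries), 184 without LPS 3 to 2751 without LPS with ABS 1 (1191), and 587 without control 1 to 2612 without LPS with ABS 3 (1685). With only the 2 groups compared in the fit, 3245 genes were called with LPS, and 3042 with ABS against LPS, 2 of the set lower. The GC correction gave 5 higher and 2 lower with ABS against LPS, with 1191 of all genes called, and 1685 against control; with the replicate block as well these were 5, 2, 1410 and 1759. HIF1A with ABS against LPS turned to 0.15 and PDK1 with LPS and ABS against control to 0.09, both with the GC correction alone and with the block. Adding 1 to FPKM gave HK2 over HK1 differences of -0.89 (LPS against control) and 0.30 (ABS against LPS), since HK2 is low. The GC correction gave LDHB over LDHA differences of -1.63 (ABS against LPS) and -0.42 (against control). DESeq2 gave 1 higher and 13 lower, 17 and 6, and 5 and 10. Among all genes it called 1301 and 1293, 2488 and 2689, and 2313 and 2699. Scaling by total counts moved the median of all genes from 0.02 to -0.09 with ABS against LPS and from 0.05 to -0.08 against control, and the share of calls that were higher from 47.2% to 32.6% and from 43.8% to 26.7%. Without the filter on low counts 60.8% of calls with LPS were higher, beside 51.7%. Libraries with the same replicate number correlated at -0.0352 to 0.203, not all over 0.1, so the numbers were not taken to pair them. The replicate block gave 1 higher and 12 lower, 16 and 5, and 4 and 10. Among all genes it gave 1003 higher and 957 lower, 2210 and 2628, and 1924 and 2649. Apart from the low level of HK2, the cause was not tested. Counts of 24 limit EGLN3, and 3 libraries a group limit all tests.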
